A study of Mus musculus with 4 samples.

Results

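The genes of the mitochondrial ribosomal proteins were followed across 4 microarrays of mouse gastric corpus. Members were all genes whose symbol begins with Mrpl or Mrps followed by a digit, leaving out pseudogenes, and each was represented by the probe set with the highest mean among those annotated to that gene alone. This gave 71 genes of 22180 measured, 43 of them named for the large subunit (Mrpl) and 28 for the small subunit (Mrps). A further 7 genes with such names in the RefSeq table (Mrpl30, Mrpl33, Mrpl41, Mrpl43, Mrpl44, Mrpl53 and Mrps6) lay only on probe sets shared with another gene and were not analysed here.

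The groups were KO metformin, KO vehicle, WT metformin and WT vehicle, with 1 array in each. KO mice carried Atp4b-cre with both floxed catalytic subunit genes of the AMP-activated protein kinase, Prkaa1 fl/fl and Prkaa2 fl/fl, so that the kinase was to be lost in cells that use the Atp4b promoter, the parietal cells. WT mice were C57BL/6, whereas the KO mice had a mixed B6 and FVB background that came with the Cre line, and genotype and background cannot be told apart. All mice were adults of 8 to 10 weeks and were injected into the peritoneum every day for 14 days, with metformin at 300 mg/kg or with saline. Littermates served as controls where possible, and the labels do not say how many animals contributed to an array. The submitters describe the KO corpus as having fewer parietal cells, less mature than normal. Since no group had a second array, differences between 2 arrays have no replicate check and no p-value, and each is printed as a log2 difference.

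Mitochondria carry their own ribosome, which translates the few proteins encoded by mitochondrial DNA, all of them core subunits of the respiratory chain and the ATP synthase. Its ribosomal RNAs come from mitochondrial DNA, but its proteins are encoded in the nucleus, made in the cytosol and imported. Some of them descend from bacterial ribosomal proteins and others have no bacterial counterpart. The acid-secreting parietal cells of the corpus are packed with mitochondria.

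Array values were log2 expression values, and the median over all 41345 probe sets lay between 4.40 and 4.55 on the 4 arrays. Genes with a mean at or above 5.03 were kept for counts and medians, 11090 in all, among them 68 of the 71 members. Mrpl27, Mrps14 and Mrps36 lay under this value. The arrays carried the corpus markers, with all 13 parietal cell genes and 5 of 6 chief cell genes past the filter. Prkaa1 had log2 values of 8.66 (KO metformin), 8.18 (KO vehicle), 8.90 (WT metformin) and 9.46 (WT vehicle), and Prkaa2 had 7.52, 7.19, 8.02 and 8.90 on the same arrays, so both targeted genes were lower on the KO arrays. Both were highest on the WT vehicle array and lowest on the KO vehicle array. Over all genes past the filter, these were also the most frequent highest (46.2%) and lowest (44.2%) arrays. Whether the probe sets of Prkaa1 and Prkaa2 lie in the deleted exons is not known here. In whole tissue, fewer cells of a type and less RNA per cell cannot be told apart.

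Mitochondrial ribosomal protein genes were most often highest on the KO vehicle array and most often lowest on the WT vehicle array, and the metformin arrays of both genotypes lay between them in the median. Of the 68 members past the filter, 33 (48.5%) had their highest value on the KO vehicle array, against 19.6% of all genes. The WT vehicle array held the lowest value of 28 members (41.2%), against 19.7% of all genes. Over all genes past the filter the order was turned round, since 46.2% were highest on the WT vehicle array and 44.2% lowest on the KO vehicle array. Without the filter, the median vehicle difference (KO minus WT) of all 22180 genes was 0.03. Relative to each gene's own mean over the arrays, the members' median was -0.04 on the KO metformin array, 0.13 on the KO vehicle array, 0.06 on the WT metformin array and -0.08 on the WT vehicle array.

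**Figure D1:**
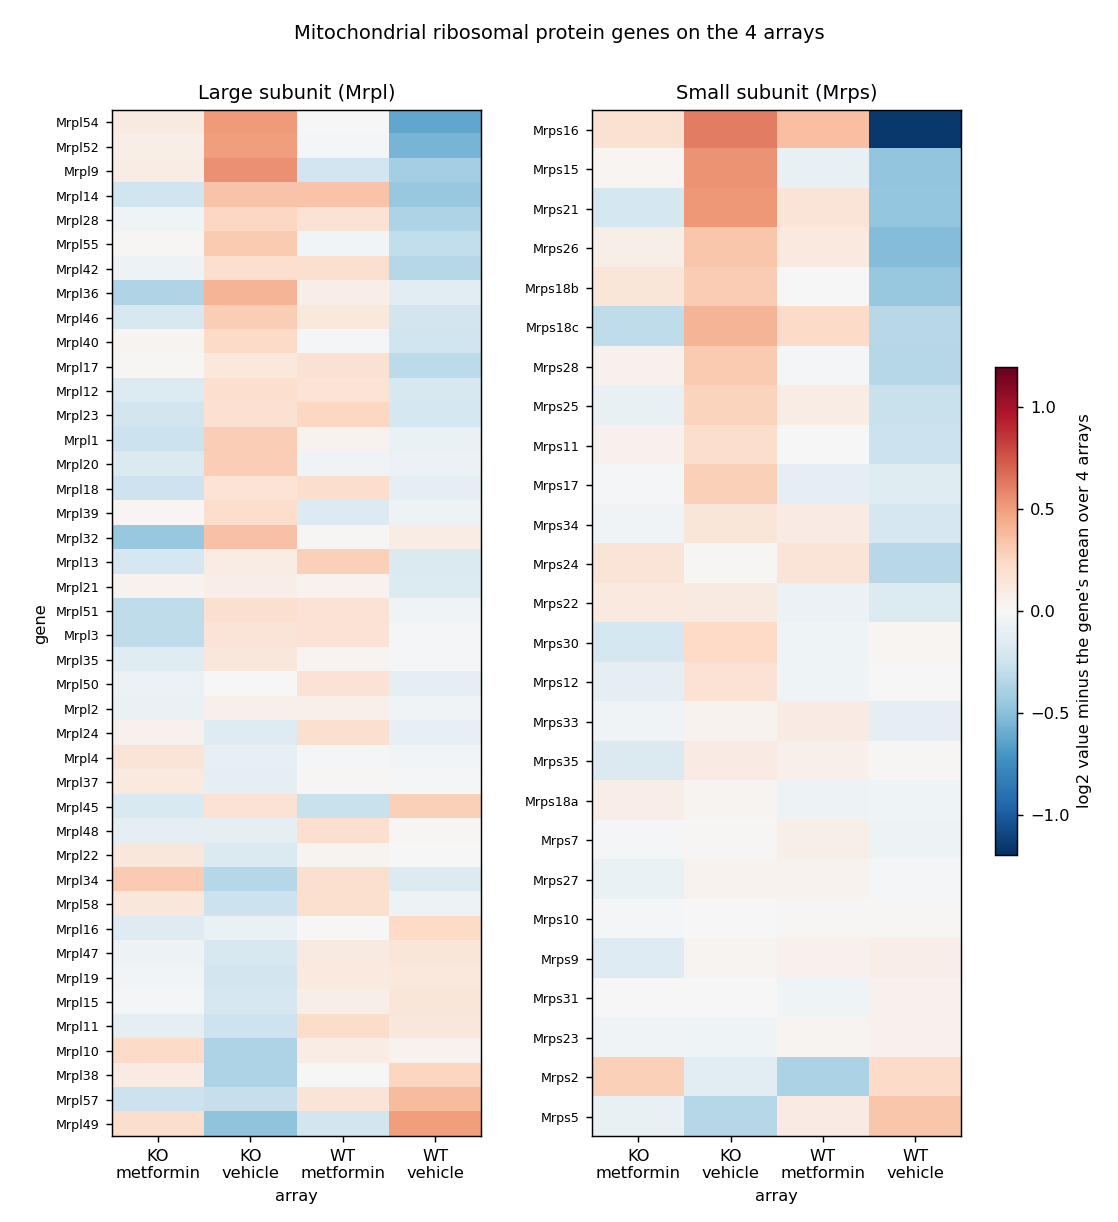
Log2 value minus the gene's mean over the 4 arrays (colour scale) for the 68 members past the filter, in rows ordered by KO vehicle minus WT vehicle, with the large subunit (42 genes) on the left and the small subunit (26 genes) on the right. The upper rows of both panels are red on the KO vehicle array and blue on the WT vehicle array, and the lowest rows, led by Mrpl49 and Mrps5, show the opposite.

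The genotypes were first compared under vehicle. The members were higher in KO by a median of 0.23, while the median of all genes was -0.22. Above 0 were 45 of 68 members (66.2%), and 57 (83.8%) exceeded the all-gene median. At least 2-fold higher in KO were 4 members (5.88%), against 2.31% of all genes, and 0 were at least 2-fold lower, against 8.12% of all genes. At 1.5-fold, 13 members were higher (19.1%, background 7.44%) and 4 were lower (5.88%, background 24.4%). The quartiles of the members were -0.09 and 0.49, so the shift was small for most of them and not shared by all.

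The 4 members past 2-fold came from both subunits. Mrps16, a small-subunit protein with a bacterial counterpart whose loss in humans causes a severe respiratory chain deficiency, had log2 values of 6.94 on the KO metformin array, 7.37 on the KO vehicle array, 7.12 on the WT metformin array and 5.60 on the WT vehicle array. The WT vehicle array stood alone as the low one, and KO vehicle minus WT vehicle was 1.77, a 3.42-fold difference. A further probe set of Mrps16 showed the same order of arrays with a smaller difference, at 6.05, 6.61, 6.44 and 5.74 on the same arrays and 0.87 for KO vehicle minus WT vehicle. Mrpl54, a large-subunit protein without a bacterial counterpart, had 8.15 (KO metformin), 8.56 (KO vehicle), 8.05 (WT metformin) and 7.42 (WT vehicle), a vehicle difference of 1.14. Mrpl52, also specific to mitochondria, had 8.80, 9.23, 8.71 and 8.17 in the same order and a difference of 1.05. Mrps15, a small-subunit protein with a bacterial counterpart, had 8.40, 8.92, 8.28 and 7.90 and a difference of 1.01. In each of these genes the KO vehicle array was the highest and the WT vehicle array the lowest, an order favoured by picking them on this difference. Just under the threshold were Mrps21 (0.99), Mrpl9 (0.95) and Mrps26 (0.85).

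A minority of members ran the other way under vehicle. Mrpl49, a large-subunit protein without a bacterial counterpart, had 6.95 on the KO metformin array, 6.26 on the KO vehicle array, 6.52 on the WT metformin array and 7.24 on the WT vehicle array, and KO vehicle minus WT vehicle was -0.98. Picked as the lowest in this difference, it was the mirror image of the larger group, with the WT vehicle array highest and the KO vehicle array lowest. Next came Mrps5 (-0.67), whose relative in Caenorhabditis elegans is known from work on lifespan, Mrpl57 (-0.65), Mrpl38 (-0.63) and Mrpl10 (-0.41), a protein of the stalk that recruits translation factors. The other stalk proteins differed among themselves, with Mrpl12 at 0.40 and Mrpl11 at -0.38. Both probe sets of Mrpl12 gave nearly the same difference (0.40 and 0.39), whereas those of Mrpl10 gave -0.41 and 0.11.

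Promoter sequences are shown for 3 of the 4 members past 2-fold, for the head-to-head pair Mrps11 and Mrpl46, and for Mrpl49 as the member with the lowest difference, since these genes moved in the same or in opposite directions on the same arrays. Each run is RefSeq's window of 250 bases before to 50 bases after the gene's start, on build GRCm38.p6, written from the 5′ to the 3′ end of the gene's own strand, and capitals mark matches to the motifs named in the next paragraph.
Mrps16, chr14:20393441-20393740, minus strand: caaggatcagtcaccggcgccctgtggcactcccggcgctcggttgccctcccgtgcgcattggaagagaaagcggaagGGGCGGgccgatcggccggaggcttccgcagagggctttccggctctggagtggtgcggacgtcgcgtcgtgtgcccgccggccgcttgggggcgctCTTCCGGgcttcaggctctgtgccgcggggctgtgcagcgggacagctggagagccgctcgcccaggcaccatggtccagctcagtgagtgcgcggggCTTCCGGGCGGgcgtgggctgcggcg
Mrps15, chr4:126046678-126046977, plus strand: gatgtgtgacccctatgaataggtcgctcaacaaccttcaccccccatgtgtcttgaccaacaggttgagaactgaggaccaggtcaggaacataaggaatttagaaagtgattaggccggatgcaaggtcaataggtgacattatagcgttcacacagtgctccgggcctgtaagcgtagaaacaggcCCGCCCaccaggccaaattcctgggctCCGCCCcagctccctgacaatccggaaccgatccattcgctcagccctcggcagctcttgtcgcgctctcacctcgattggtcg
Mrpl52, chr14:54426659-54426958, plus strand: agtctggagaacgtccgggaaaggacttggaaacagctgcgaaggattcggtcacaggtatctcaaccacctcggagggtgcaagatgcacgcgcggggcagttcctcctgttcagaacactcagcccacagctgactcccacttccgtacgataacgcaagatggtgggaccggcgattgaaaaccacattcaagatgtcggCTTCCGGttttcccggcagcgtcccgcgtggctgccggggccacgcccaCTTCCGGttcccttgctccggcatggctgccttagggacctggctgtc
Mrps11, chr7:78782881-78783180, plus strand: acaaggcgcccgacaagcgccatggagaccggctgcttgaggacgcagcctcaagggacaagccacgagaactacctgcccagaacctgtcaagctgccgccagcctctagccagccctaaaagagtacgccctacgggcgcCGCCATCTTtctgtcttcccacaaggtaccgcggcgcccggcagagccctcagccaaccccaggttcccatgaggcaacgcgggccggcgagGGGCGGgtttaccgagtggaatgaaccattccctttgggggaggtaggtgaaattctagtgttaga
Mrpl46, chr7:78783040-78783339, minus strand: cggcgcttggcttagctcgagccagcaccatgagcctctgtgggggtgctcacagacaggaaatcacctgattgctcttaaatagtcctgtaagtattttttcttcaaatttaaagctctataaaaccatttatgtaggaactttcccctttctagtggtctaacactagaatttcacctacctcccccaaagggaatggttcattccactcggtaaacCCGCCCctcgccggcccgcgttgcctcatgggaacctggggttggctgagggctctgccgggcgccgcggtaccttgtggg
Mrpl49, chr19:6057706-6058005, minus strand: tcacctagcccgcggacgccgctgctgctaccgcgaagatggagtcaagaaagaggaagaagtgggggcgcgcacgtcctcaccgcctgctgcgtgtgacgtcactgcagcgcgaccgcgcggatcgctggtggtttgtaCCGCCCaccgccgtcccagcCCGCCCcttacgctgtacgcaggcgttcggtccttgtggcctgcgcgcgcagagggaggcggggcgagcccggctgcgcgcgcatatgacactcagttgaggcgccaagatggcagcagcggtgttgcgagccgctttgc

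Motifs of 5 factors linked to nuclear genes of mitochondria or to promoters rich in CG were searched on both strands in the 62 of 71 members that have such a window, and in the first window of all 17491 protein-coding genes of the table. Member windows held a median of 21 CG pairs, against 13 over all windows, which were not filtered by expression. The ETS, YY1 and NRF1 motifs each contain a CG pair, and their shares were not compared at matched CG content. The ETS motif CCGGAAG, which GABPA binds, was in 22 of 62 member windows (35.5%), against 11.9% of all windows. The YY1 motif AAGATGGCG was in 8 (12.9%, all windows 1.94%) and the palindromic NRF1 motif in 3 (4.84%, all windows 1.32%), in Mrpl9, Mrpl32 and Mrpl39. The Sp motif GGGCGG was in 32 (51.6%, all windows 46.3%). The ERR motif TCAAGGTCA was in 0 of the 62 and in 0.332% of all windows, which says only that these letters are not in the windows. Matches of 2 motifs overlapped in 2 member windows, 1 of them that of Mrps16, where an ETS match runs into an Sp match near the end of the window. Members whose window held the ETS motif (21 past the filter) and those without (38) had the same median vehicle difference, 0.24 each. A window holding the Sp motif went with a median of 0.36 (30 members), against 0.08 without it (29 members). These medians were not tested, and the same split was not made over all genes. A match is a description of the letters and not a bound site.

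Many members share their start region with another gene. Within 1000 bases upstream of the start, 21 of 62 members (33.9%) had a protein-coding gene that starts on the opposite strand, against 8.04% of all protein-coding genes in the table. No expression filter was applied to the share of all genes. In 1 of the head-to-head pairs both genes are members. Mrpl46, of the large subunit, and Mrps11, of the small subunit, had vehicle differences of 0.52 and 0.48, and in the windows printed above their start regions overlap. The 17 other neighbours past the filter that are no members had a median vehicle difference of -0.17, and 4 of them lay above 0. Protein-coding genes past the filter had a median of -0.24, with 31.4% above 0, so these neighbours lay near that background. Opposite signs across a start region were seen, for example, for Mrpl49 (-0.98) and Fau (0.55), which encodes a cytosolic ribosomal protein. Mrps12, a protein of the decoding centre, had 0.17 and its neighbour Sars2, the mitochondrial seryl-tRNA synthetase, -0.12.

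The effect of metformin was taken first in WT, where the study looked for its targets in mature parietal cells. The members were higher with metformin by a median of 0.18, while the median of all genes was -0.14, and 61 members (89.7%) exceeded the all-gene median. Above 0 were 50 members (73.5%). At least 2-fold higher was 1 member, Mrps16 (1.47% of the members, against 0.775% of all genes), and 0 were 2-fold lower, against 0.929% of all genes. At 1.5-fold, 5 members were higher (7.35%, background 3.57%) and 2 were lower (2.94%, background 9.06%). Mrps16 was 2.88-fold higher with metformin (1.52), and its further probe set gave 0.70. Next came Mrpl14 (0.79), a large-subunit protein with a bacterial counterpart, Mrps26 (0.63), Mrpl54 (0.63) and Mrps21 (0.62). The lowest were Mrpl49 (-0.72), Mrps2 (-0.62), Mrpl45 (-0.55), which links the large subunit to the inner membrane, Mrpl38 (-0.25) and Mrpl16 (-0.24).

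Metformin targets outside mature parietal cells were sought by comparing the KO metformin array with the KO vehicle array. Here the members were lower with metformin, by a median of -0.19 against 0.11 for all genes, and 52 members were under the all-gene median. Below 0 were 46 members (67.6%). None was past 2-fold, with 0 higher against 2.44% of all genes and 0 lower against 0.613%. At 1.5-fold, 3 were higher (4.41%, background 12.4%) and 4 lower (5.88%, background 3.72%). The lowest was Mrpl32, a large-subunit protein whose maturation needs the m-AAA protease of the inner membrane. It had 6.32 on the KO metformin array, 7.13 on the KO vehicle array, 6.78 on the WT metformin array and 6.86 on the WT vehicle array, so the difference with metformin was -0.81 in KO and -0.07 in WT. Mrpl36 followed with -0.77, from 4.80 on the KO metformin array, which lies under the filter value, against 5.56 on the KO vehicle array. Mrps21 (-0.74), Mrps18c (-0.70) and Mrpl14 (-0.58) came next. The highest were Mrpl49 (0.69), Mrpl34 (0.66), Mrpl10 (0.60), Mrpl38 (0.47) and Mrps2 (0.43). The further probe set of Mrpl10 gave -0.17, and that of Mrps18c gave 0.09.

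The responses of the genotypes rest on different arrays and were set against each other gene by gene. Higher with metformin in WT and lower with metformin in KO were 39 of 68 members (57.4%), against 19.4% of all genes. The reverse pattern was seen in 11 members (16.2%), against 46.6% of all genes. In both genotypes, 11 members were higher and 7 lower. Across the 68 members the KO and WT responses had Pearson's r of -0.449 and Spearman's rho of -0.44, and across all 11090 genes r was -0.399 and rho -0.373. These are descriptions across genes, which share the 4 arrays and their common normalization and are not independent replicates. Subtracting the WT response from the KO response gave a median of -0.34 for the members, against 0.26 for all genes. At least 2-fold lower in this difference were 5 members (7.35%, background 3.61%), which were Mrps16 (-1.95), Mrpl14 (-1.37), Mrps21 (-1.36), Mrps18c (-1.26) and Mrpl54 (-1.04). The further probe set of Mrps18c gave -0.14. At least 2-fold higher were 2 (2.94%, background 11.2%), which were Mrpl49 (1.41) and Mrps2 (1.04).

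**Figure D2:**
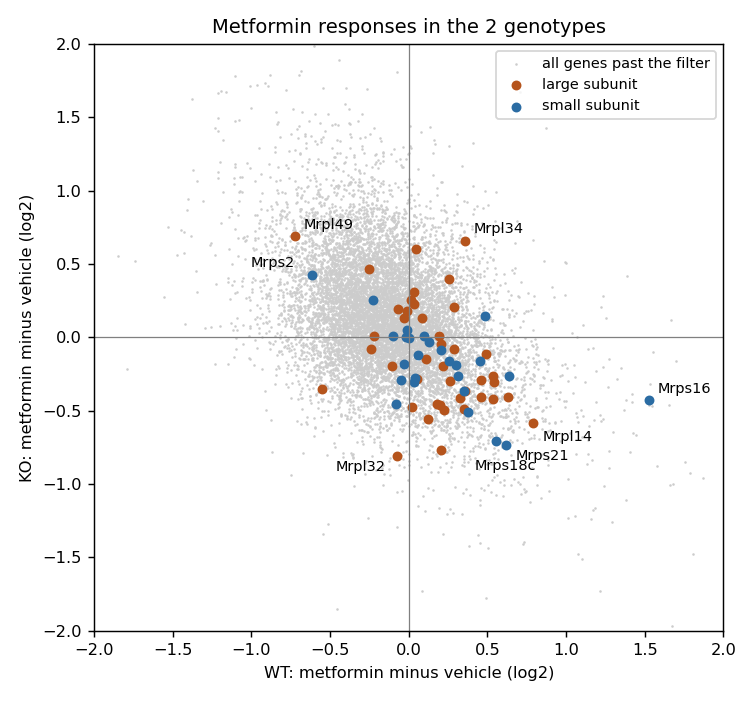
Difference of metformin from vehicle on the log2 scale in KO (vertical axis) against the same in WT (horizontal axis), with all genes past the filter in grey and the members coloured by subunit; 26 genes beyond 2 on either axis are not drawn. The lower right holds 39 of the 68 members, Mrps16 lies far to the right at 1.52, and Mrpl49 and Mrps2 lie in the upper left.

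Under metformin the genotypes were close. The members had a median of -0.13 in KO against WT, where the median of all genes was 0.02, and 25 of 68 lay above 0. None was past 2-fold, with 0 higher against 0.532% of all genes and 0 lower against 0.388%. At 1.5-fold, 1 member was higher (1.47%, background 3.11%) and 0 were lower (background 2.67%). That member was Mrps2, a small-subunit protein with a bacterial counterpart, with 6.28 on the KO metformin array, 5.85 on the KO vehicle array, 5.60 on the WT metformin array and 6.22 on the WT vehicle array, so it was high on the KO metformin and WT vehicle arrays. Mrpl49 (0.43), Mrpl9 (0.32), Mrpl39 (0.19) and Mrps22 (0.19) followed, and Mrpl14 (-0.58), Mrps18c (-0.53), Mrpl13 (-0.49), Mrpl3 (-0.48) and Mrpl51 (-0.48) were lowest. Mrpl3, which lies near the peptidyl transferase centre, was lower on the KO metformin array (6.46) than on the other arrays, which stood at 6.92 (KO vehicle), 6.94 (WT metformin) and 6.75 (WT vehicle).

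Large and small subunit were then set side by side. In the vehicle comparison of KO with WT, the 42 large-subunit genes had a median of 0.21 and the 26 small-subunit genes 0.24. For metformin in WT the medians were 0.20 (large) and 0.11 (small), for metformin in KO -0.20 and -0.17, and for KO against WT under metformin -0.15 and -0.08. Large minus small was thus 0.08 for metformin in WT, -0.02 for metformin in KO, -0.03 for KO against WT under vehicle and -0.08 for KO against WT under metformin. These gaps are small beside the spread within either subunit, where the quartiles of the vehicle differences ran from -0.18 to 0.43 (large) and from 0.06 to 0.62 (small). Below 0 in the vehicle comparison were 17 of 42 large-subunit genes (40.5%) and 6 of 26 small-subunit genes (23.1%), both under the 66.9% of all genes. The KO vehicle array held the lowest value of 15 large-subunit genes (35.7%) and of 2 small-subunit genes (7.69%), Mrps5 and Mrps23, where the share of all genes was 44.2%. With 1 array a group, whether the subunits differ could not be tested.

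**Figure D3:**
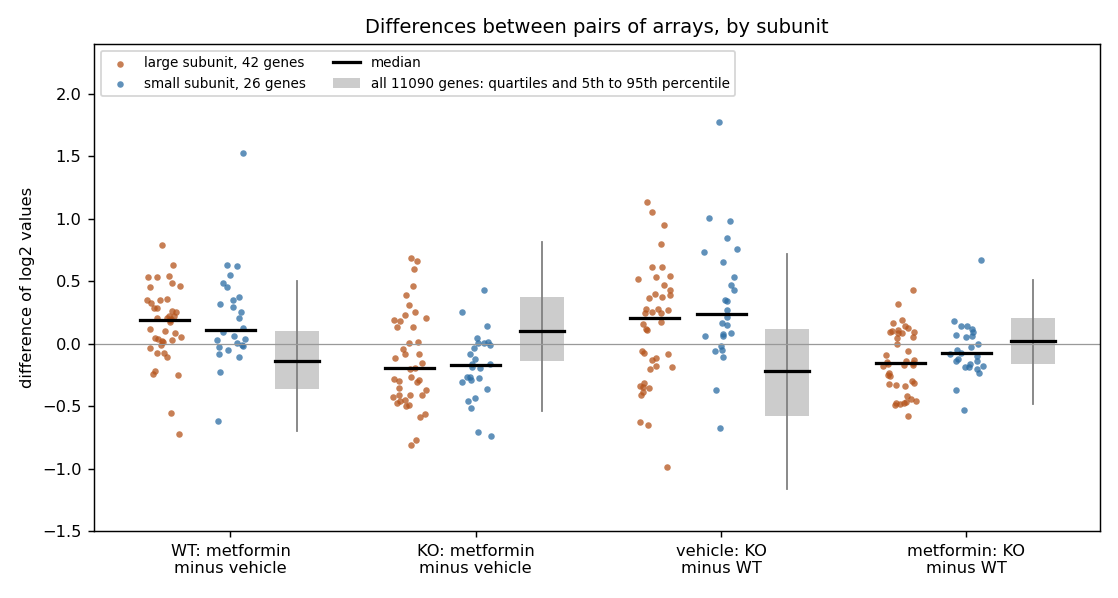
Differences of log2 values (vertical axis) in the 4 comparisons of 2 arrays for large-subunit genes (orange), small-subunit genes (blue) and all 11090 genes (grey box for the quartiles, line for the 5th to 95th percentile), with black bars for medians. Medians of both subunits lie on the same side of 0 in each comparison, at 0.21 and 0.24 in the vehicle comparison, and the clouds of points overlap.

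Symbols do not always match a protein's place in the mammalian ribosome. Mrps30 and Mrps18a belong to the large subunit in the known structures despite their names, and Mrps36 is known as a part of the 2-oxoglutarate dehydrogenase complex. With subunits taken by place in the structure, large minus small was 0.02 for metformin in WT and -0.02 for metformin in KO. For KO against WT it was -0.11 under vehicle and -0.08 under metformin. Mrps30 had 6.46 on the KO metformin array, 6.91 on the KO vehicle array, 6.62 on the WT metformin array and 6.70 on the WT vehicle array, a vehicle difference of 0.22. Mrps18a was nearly level, between 7.07 and 7.22 on all 4 arrays. Mrps36 was dim, between 3.75 and 4.22. The related gene Mrps18c, which keeps the place of the bacterial protein, had 5.23 (KO metformin), 5.94 (KO vehicle), 5.76 (WT metformin) and 5.20 (WT vehicle), a vehicle difference of 0.73, but its further probe set, at 3.10 to 3.47, gave -0.15. Mrps18b stands on a probe set with a vehicle difference of 0.76, while its further probe set, at 7.06 (KO metformin), 5.88 (KO vehicle), 6.77 (WT metformin) and 6.96 (WT vehicle), gave -1.08. The direction for Mrps18b and Mrps18c is therefore uncertain, and the same holds for Mrps17, with 0.43 and -0.87. Of 9 members with several probe sets, these 3 and Mrpl10 disagreed in sign by at least 0.5 in the vehicle comparison, and Mrpl47 did so under metformin. Near-identical copies elsewhere in the genome can share probes, and which copy each probe set reads is not known here.

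Members with and without a bacterial counterpart were also compared. The 41 with a counterpart had a median vehicle difference of 0.26 and the 27 specific to mitochondria 0.15. The quartiles were nearly the same, from -0.07 to 0.48 (counterpart) and from -0.09 to 0.49 (specific). The share above the all-gene median ran the other way, at 80.5% (counterpart) and 88.9% (specific). Whether the classes differ was not tested. For metformin in WT the medians were 0.18 and 0.19, and for metformin in KO -0.26 and -0.16. Over the 4 arrays Mrps22, of the small subunit, ranged from 6.16 to 6.44 and Mrps35 from 6.86 to 7.13. Mrps34 had 6.67 (KO metformin), 6.86 (KO vehicle), 6.81 (WT metformin) and 6.51 (WT vehicle), a vehicle difference of 0.35. Mrpl24 had a vehicle difference of -0.06 and Mrpl58, the enzyme that frees peptides from stalled ribosomes, -0.20. Mrps10 varied least of the 68 members, between 6.54 and 6.57.

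Other genes of mitochondrial translation had medians nearer those of all genes. Of 75 listed genes, 61 were past the filter, and their median vehicle difference was -0.19, where 2 (Ptcd3 and Rbfa) passed 2-fold upward, against 2.31% of all genes, and 3 downward, against 8.12%. The 11 initiation, elongation, release and recycling factors had a median of -0.46, from Mtrf1 (-0.78) and Gfm2 (-0.73) to the elongation factor Tufm (0.49) and its exchange factor Tsfm (0.57). The 22 assembly factors had -0.38, with Mterf3 (-1.24) and the GTPase Gtpbp10 (-1.11) lowest and Rbfa (1.05), which binds the immature small subunit, highest. The 14 mitochondrial aminoacyl-tRNA synthetases had -0.12, with Iars2, for isoleucine, at 7.60 (KO metformin), 6.69 (KO vehicle), 7.66 (WT metformin) and 8.44 (WT vehicle), a difference of -1.75. The 7 genes of mitochondrial transcription and mRNA handling had -0.31, from Mtpap (-0.71) to Supv3l1 (-0.08), and the 4 genes of membrane insertion and translational activation had -0.19. For metformin in WT these 61 genes had a median of -0.14, equal to that of all genes, with Ptcd3 past 2-fold, and for metformin in KO 0.03 with 0 past 2-fold.

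These 61 genes include 3 mitoribosome proteins with other names, of 5 listed, which differed among themselves. Ptcd3, an RNA-binding protein of the small subunit, had 7.57 (KO metformin), 8.49 (KO vehicle), 8.71 (WT metformin) and 6.92 (WT vehicle), so that the vehicle difference was 1.58 and the WT response 1.79. Its further probe set had 7.63, 7.46, 7.57 and 7.78 on the same arrays and a vehicle difference of -0.32, so the direction for Ptcd3 is uncertain. Gadd45gip1, of the large subunit, had a vehicle difference of 0.72 from 4.94 on the WT vehicle array, under the filter value. Dap3, a GTP-binding protein of the small subunit, had -0.09.

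Nuclear genes of the respiratory chain and the ATP synthase, whose core partners the mitochondrial ribosome makes, had larger differences in the same directions. Their 69 genes had medians of 0.55 for KO against WT under vehicle, 0.34 for metformin in WT, -0.32 for metformin in KO and -0.19 for KO against WT under metformin. The 49 cytosolic ribosomal protein genes had 0.59, 0.45, -0.23 and -0.13. Small nucleolar RNAs, which are short and not translated, had 1.13, 1.13, -0.56 and -0.39 over 59 genes. Over the members the same medians were 0.23, 0.18, -0.19 and -0.13. The differences between these lists were not tested, and each comparison shares arrays with others.

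**Figure D4:**
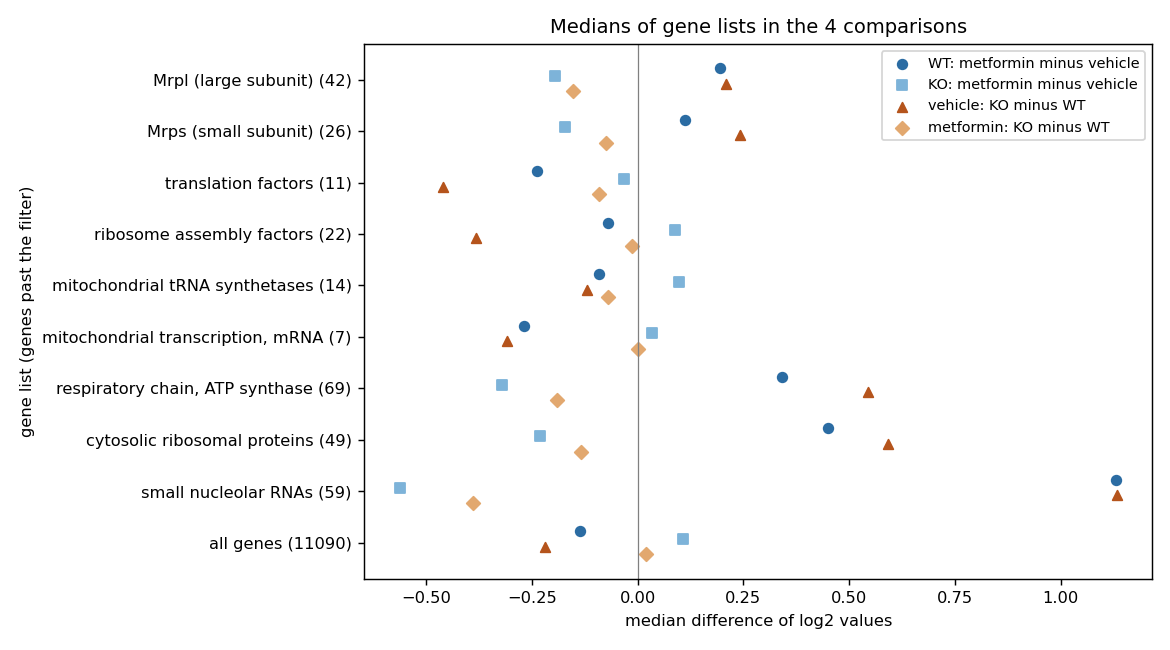
Median difference of log2 values (horizontal axis) for gene lists (vertical axis, genes past the filter in brackets) in the 4 comparisons of 2 arrays. Both subunits, the respiratory chain, the cytosolic ribosomal proteins and the small nucleolar RNAs lie right of 0 in the vehicle comparison and in the WT response and left of 0 in the KO response, while the 4 lists of other mitochondrial translation genes shown lie left of 0 in the vehicle comparison and in the WT response.

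Gene span moved with the same comparisons. The members' genes are short, with a median span of 7.69 kb against 24.8 kb over 10548 protein-coding genes past the filter. Over these protein-coding genes, span and the vehicle difference had a Spearman's rho of -0.262, and over the 68 members rho was -0.193. Protein-coding genes with a span at or under the members' median (1927 genes, members among them) had a median vehicle difference of 0.04, against the members' 0.23. In the other comparisons the values were 0.06 against the members' 0.18 for metformin in WT, 0.02 against -0.19 for metformin in KO, and -0.01 against -0.13 for KO against WT under metformin. After cyclic loess between arrays alone, the members' medians were 0.41 for KO against WT under vehicle, where that of all genes was -0.08, 0.26 for metformin in WT, -0.30 for metformin in KO and -0.14 for KO against WT under metformin. After cyclic loess and removal of the trend on span among protein-coding genes, they were 0.40 for KO against WT under vehicle, 0.21 for metformin in WT, -0.27 for metformin in KO and -0.14 for KO against WT under metformin, with medians of all genes within 0.01 of 0.

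**Figure D5:**
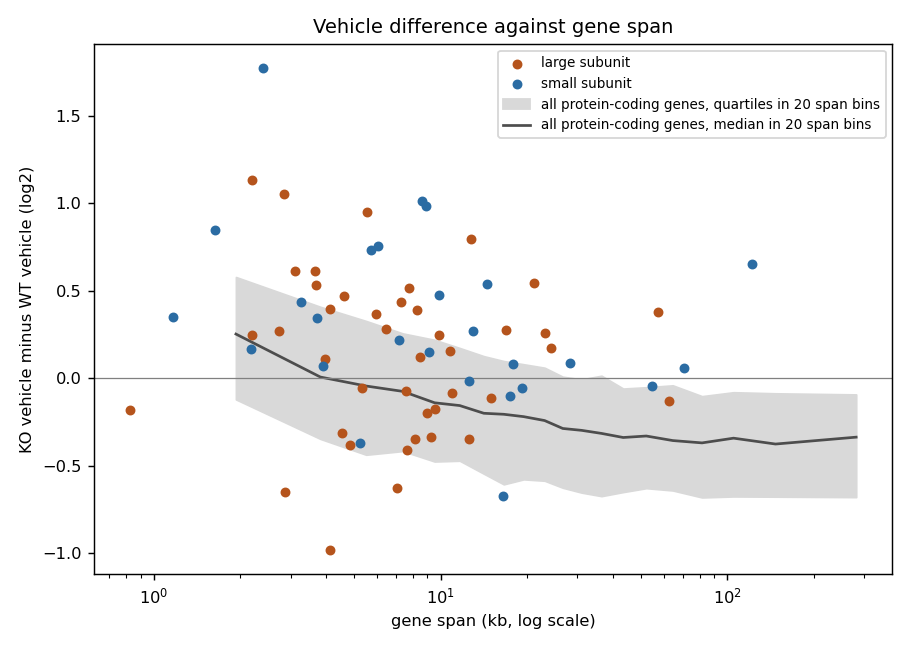
Difference of KO vehicle from WT vehicle on the log2 scale (vertical axis) against gene span in kb (horizontal axis, log scale) for the members of both subunits, with the median (line) and quartiles (band) of all protein-coding genes past the filter in 20 bins of span. The line falls with span, and most members lie above it, with Mrps16 at 1.77 highest and Mrpl49 at -0.98 lowest.

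Markers of cell types moved on the same arrays. The 13 parietal cell markers had a median vehicle difference of -0.42, with 2 above 0 and 4 at least 2-fold lower in KO (8.12% of all genes were), and mean log2 values of 10.15 (KO metformin), 9.87 (KO vehicle), 10.07 (WT metformin) and 10.48 (WT vehicle). The 8 smooth muscle markers had a median of -0.95, with means of 9.93, 9.31, 10.32 and 10.18 on the same arrays. The 5 chief cell markers past the filter had 0.02, and the 5 surface pit cell markers -0.09. The 5 mucous neck cell markers went both ways under vehicle, with A4gnt (-1.48) and Muc6 (-1.05) lower in KO and Tff2 (0.89) higher, and had a median of 0.96 for metformin in KO. The 9 squamous markers measured, which stand for the forestomach, had medians of 0.51 under vehicle and 1.67 for metformin in KO. Their means were 6.88 (KO metformin), 4.84 (KO vehicle), 4.70 (WT metformin) and 4.44 (WT vehicle). Only 5 of them were past the filter. For metformin in KO these had 4.69 (Krtdap), 3.25 (Krt10), 3.12 (Cnfn), 1.67 (Krt13) and 1.31 (Sprr1a). The part of these shifts in the members' differences was not tested.

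Effects averaged over 2 arrays against 2 were tested in limma with genotype and treatment as terms. For KO against WT, 0 of 68 members passed a Benjamini-Hochberg adjusted p of 0.05 over all 11090 genes, against 0.0451% of all genes (5 called), and 0 members had an unadjusted p under 0.05, against 374 of the 11090 genes. The member with the lowest p was Mrpl9, with an effect of 0.64 ± 0.31 (SE) and an adjusted p of 0.999 in limma. Mrpl9 had 7.33 (KO metformin), 7.79 (KO vehicle), 7.01 (WT metformin) and 6.84 (WT vehicle), so both KO arrays lay above both WT arrays. For metformin against vehicle, 0 members and 0.0% of all genes passed, with 0 members and 32 genes at an unadjusted p under 0.05. The lowest p among members was that of Mrpl34, a large-subunit protein with a bacterial counterpart, at 0.51 ± 0.30 (SE) and an adjusted p of 1.0 in limma. Its values were 8.18 (KO metformin), 7.52 (KO vehicle), 8.06 (WT metformin) and 7.70 (WT vehicle), higher with metformin in both genotypes. The fit has 1 residual degree of freedom, which also holds the difference between the 2 metformin responses described above.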

How the data were processed

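Biotinylated cDNA was made from total RNA of gastric corpus (Affymetrix WT Plus reagents, per the labels' protocols). The authors deposited log2 expression values. The submitters' processing notes name Partek and RMA (robust multi-array average), without versions, and values between 0.77 and 14.02 fit a log2 scale.

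The platform annotation pairs 23521 probe sets with 1 gene, 1814 with several and leaves 16010 unnamed. Symbols were updated by gene identifier in a RefSeq table (GRCm38.p6), which held 23328 of the 23521. Where a gene had several probe sets (1082 genes), the highest-mean one stood for it, leaving 22180 genes. The filter was the median of gene means (5.03). Differences are between 2 arrays, counted at 2-fold (1 on the log2 scale), with 1.5-fold beside it. limma 3.58.1 in R 4.3.3 (lmFit, eBayes, Benjamini-Hochberg) was fitted to all 11090 genes. It was also run on simulated arrays with known genotype effects, independent noise and no difference between the metformin responses. That run checked the fit and not its power for the members. Other steps used pandas 2.3.3, statsmodels 0.14.6, scipy 1.17.1 and numpy 2.4.6 under Python 3.11.15. Precision is limited by having 1 array per group.

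The members, gene lists and tests were chosen with earlier results of these data known. Named members are those past 2-fold, the 5 highest and 5 lowest in each comparison, those whose probe sets disagreed in sign by 0.5 or more, and members picked by role. The members with the lowest p in limma, those just under 2-fold, the least variable one, the motif medians and the neighbours were picked after their values were seen. Alternatives tried were a 75th percentile filter, no filter, cyclic loess, median centring, the mean of probe sets, protein-coding genes alone, removal of the span trend (lowess, span 0.3), a 1.5-fold threshold, subunits by their place in the structure, and an intensity trend in limma.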

Additional observations from a re-analysis of the deposited data

Results flagged for a closer look

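Metformin responses of opposite sign in the genotypes, each at least 0.5 in size, were seen in 4 members (5.88%), against 6.38% of all genes. The difference between the genotypes was not tested, with 1 array in each group. Higher in WT and lower in KO by this rule were 3 members (4.41%, all genes 1.68%), and 1 member was the reverse (1.47%, all genes 4.71%). Mrpl14 had a KO response of -0.58 and a WT response of 0.79, a difference of -1.37. For Mrps21 the responses were -0.74 in KO and 0.62 in WT, a difference of -1.36. Mrps18c had -0.70 in KO and 0.55 in WT, a difference of -1.26 on 1 of its 2 probe sets. Mrpl49 ran the other way, with 0.69 in KO and -0.72 in WT, a difference of 1.41.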

How the results depend on the processing

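No paired analysis was possible because each group had 1 array. The members' median relative to that of all genes kept its sign in every comparison under the alternatives that were run. With no expression filter it was smaller, at 0.18 for metformin in WT (0.32 with the filter), -0.17 for metformin in KO (-0.29), 0.21 for KO against WT under vehicle (0.45) and -0.32 for the difference of responses (-0.59), and after cyclic loess the last was -0.70. Without that filter, the medians of all genes were -0.01 for metformin in WT, -0.02 for metformin in KO and 0.03 under vehicle. The opposite shift of all genes described above was thus a trait of those past the filter. Cyclic loess moved the median of all genes under vehicle to -0.08, against -0.22 as deposited. Members past 2-fold under vehicle numbered 4, and 7 after cyclic loess. In the difference of responses 7 passed, against 4 with the 75th percentile filter, 12 after cyclic loess and 13 with the span trend also removed. At 1.5-fold, 7 (metformin in WT), 7 (metformin in KO), 17 (vehicle), 1 (metformin arrays) and 27 (difference of responses) passed. Large minus small subunit was -0.035 for metformin in WT with the span trend removed (0.08 as reported). It was 0.060 for KO against WT under metformin with the 75th percentile filter (-0.08 as reported). Under vehicle it was 0.0615 with the mean of probe sets and 0.0019 with no expression filter (-0.0335 as reported), so its sign is not stable. Mrps15 had 0.98 after median centring. The further probe set of Mrps18b, chosen after seeing the data, gave -0.18 for metformin in WT, 1.18 for metformin in KO and -1.08 under vehicle. No member passed the adjusted p in limma under any variant run. Protein length could not be used as a trend, since no protein table was at hand, and that alternative was not run. Of 151 recomputed values, 130 stayed within the tolerance of 0.1 on the log2 scale or 1.5 times a count, or kept their side of 2-fold. Some of these could not move, since median centring cancels in a difference of medians and all 68 members are protein-coding. The tolerance is also larger than every large minus small value as reported, so a change of sign there could still count as unmoved.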
